A study of Mus musculus with 9 samples.

Results

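The 10 glycolysis enzyme genes Gpi1, Pfkl, Aldoa, Tpi1, Gapdh, Pgk1, Pgam1, Eno1, Pkm and Ldha were followed in RNA-seq read counts from mouse extra-embryonic endoderm (XEN) stem cells. They are a named set, chosen by symbol, and all 10 were found among the 55401 genes of the table of 7 libraries and passed its filter on low counts. In the edgeR test all 10 were lower in DXp than in the wild-type group WT_EV, and 9 of 10 in DXp_DXm, the groups with a deletion at Xist, where 40.1% and 36.0% of all genes tested were lower in the same order. With GC content and transcript length taken into account, 9 of 10 were lower in DXp and 6 of 10 in DXp_DXm, against 25.0% and 20.7% of all genes. The summed counts of the 10 genes took 0.0716% and 0.0453% of all counts in the DXp libraries, 0.107% and 0.145% in the DXp_DXm libraries, and 0.963%, 0.835% and 0.674% in the WT_EV libraries. The X-linked gene Pgk1 had the smallest change of the 10 in both comparisons in these fits, and in neither with library sizes taken from genes of like GC content, where it was higher. Inside the enolase and phosphofructokinase families the share of the isozymes outside the set was larger in the deletion groups. Ldha and Aldoa kept 91.8% or more of the tested genes of their families in every library.

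The DXp group (n = 2) carried a paternal deletion, which the genotype labels call a Xist deletion and the design text calls an Xist upstream deletion, and its titles read D1_DeltXp. DXp_DXm (n = 2) carried the homozygous deletion under titles reading D3_DeltXp_DeltXm, and WT_EV (n = 3) was wild type. Another group, WT_clone (n = 2), was also wild type and was held only for part of the genes, among them Pgk1. All are female XEN cells of a Mus musculus molossinus by Mus musculus cross, except that the WT_clone labels give no sex, and no treatment is named. XEN cells are stem cells of the primitive endoderm lineage, and in female ones imprinting silences the X chromosome from the father. No source used here gives the ends of the deletion or the meaning of EV, D1 and D3. The design text speaks of clones. If D1 and D3 each name 1 line, genotype and line cannot be told apart. Xist, the non-coding RNA that coats the silenced X chromosome, took 1.38% and 1.36% of all counts in the DXp libraries, 0.515% and 0.834% in the DXp_DXm libraries, and 0.0801%, 0.114% and 0.181% in the WT_EV libraries. Its transcript was thus present in every library, and the genotype was not checked in the counts, since the deleted segment is not known. The design text names biological replicates for the deletions only, so p-values measure the spread between these libraries, which may be technical.

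Glycolysis splits glucose into pyruvate in the cytosol. In its first phase the hexose is phosphorylated and cleaved into triose phosphates, and in its second phase these are oxidised to pyruvate with a yield of ATP and NADH. Lactate dehydrogenase then turns pyruvate into lactate and gives back NAD+. Many genes of the pathway are known targets of the hypoxia-inducible factor HIF1 and of Myc, and proliferating stem cells usually express them strongly.

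Total counts were 24586135 and 29335803 in DXp, 25589912 and 27334893 in DXp_DXm, and 14352719 to 19833044 in WT_EV. All 8 primitive endoderm markers had at least 10 counts in every library, and their sum was 2945 to 5043 CPM (counts scaled to library size by TMM) in DXp, 2947 to 3007 CPM in DXp_DXm and 3079 to 3175 CPM in WT_EV. The sum hides single markers that moved in opposite directions. In raw counts Gata4 had 2073 and 4086 in DXp, 2764 and 2271 in DXp_DXm, and 12426 to 15164 in WT_EV. Dab2 had 22467 and 67444 in DXp, 27139 and 50163 in DXp_DXm, and 8723 to 18787 in WT_EV. In raw counts Hnf4a, Foxa2 and Sox17 were also lower in both deletion groups, Sox17 only slightly in DXp, and Sox7 was also higher. Raw counts are not scaled for the larger totals of the deletion libraries. The 6 pluripotency, 7 trophoblast and 7 fibroblast markers summed to at most 1.85 CPM per list in any library, with Sox2, Tfap2c, Hand1, Tpbpa, Col1a2, Col3a1, Thy1 and Twist2 at 0 in all 7. Apart from the genotype, the groups also differed in RNAs without a poly(A) tail. The 9 such RNAs listed, Rn7sk among them, summed to 0.614 and 0.927 CPM in the DXp libraries, 0.864 and 0.995 CPM in the DXp_DXm libraries, and 8525 to 15140 CPM in WT_EV. Changes against WT_EV also followed the GC content of the transcripts. Among 2453 genes under 42% GC the median log2 change was 2.03 in DXp and 1.61 in DXp_DXm, and among 3600 genes of 54% GC or more it was -3.44 in DXp and -3.05 in DXp_DXm. The 10 enzymes have GC contents of 49.7% to 57.7%. RNAs without a poly(A) tail, GC content and genotype move together here and cannot be told apart, and the part of the first of these in the results was not tested. The labels name stranded kits of 2 makes for every library without saying which had which, so a difference in kit and the genotype cannot be told apart either. Changes against WT_EV are given from the main fit and from a fit with offsets, in which a curve of the counts on GC content and transcript length was taken out of each library.

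RefSeq promoter windows on GRCm38.p6 (250 bases before to 50 bases after a transcription start) were matched for 10 of the 10 genes, in 16 windows. A search on both strands for the core of the HIF response element, ACGTG or GCGTG, found it in 12 of the 16 windows and in at least 1 window of 8 genes, against 43.8% of all 32851 windows. The GC box GGGCGG, the core of the Sp1 motif, stood in 11 of the 16 windows, against 35.7% of all. The enzymes' windows have GC contents of 52.7% to 69.0%, where all windows average 53.8%, and 2 windows of Aldoa and 2 of Eno1 overlap each other, so the enzymes' windows are not independent and differ in composition from the rest. ACGTG is also the end of the E-box CACGTG, and overlapping matches were each counted. Gpi1 and Tpi1, with 1 window each, held no HIF core, and the Ldha window at chr7:46845554-46845853 held 7. A match is a run of letters only, and its use by a factor was not measured here. The windows of 3 genes are shown because of where these genes stand in the results, Pgk1 as the enzyme with the smallest change in the main fit, Pfkl as the one with the largest change in DXp, and Pgam1 as the one that differed most between the deletion groups. They are written 5′ to 3′ on the strand of the gene, with HIF cores of either strand in capitals. The Pgk1 window lies at chrX:106186850-106187149 on the plus strand, with 2 HIF cores and 5 GC boxes. The Pfkl window lies at chr10:78009758-78010057 on the minus strand, with 1 HIF core and 3 GC boxes. The Pgam1 window lies at chr19:41911621-41911920 on the plus strand, with 3 HIF cores and 2 GC boxes.
Pgk1: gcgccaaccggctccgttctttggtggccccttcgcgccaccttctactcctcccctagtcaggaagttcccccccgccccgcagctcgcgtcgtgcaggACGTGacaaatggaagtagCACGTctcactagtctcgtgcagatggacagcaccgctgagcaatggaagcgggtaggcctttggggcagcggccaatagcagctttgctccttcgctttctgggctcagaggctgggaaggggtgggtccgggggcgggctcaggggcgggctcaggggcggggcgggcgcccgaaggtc
Pfkl: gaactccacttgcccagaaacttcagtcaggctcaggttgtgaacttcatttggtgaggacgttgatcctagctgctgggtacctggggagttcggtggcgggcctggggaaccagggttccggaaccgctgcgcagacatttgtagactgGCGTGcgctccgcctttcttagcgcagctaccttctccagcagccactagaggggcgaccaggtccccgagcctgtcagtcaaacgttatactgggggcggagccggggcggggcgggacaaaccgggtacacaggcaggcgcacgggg
Pgam1: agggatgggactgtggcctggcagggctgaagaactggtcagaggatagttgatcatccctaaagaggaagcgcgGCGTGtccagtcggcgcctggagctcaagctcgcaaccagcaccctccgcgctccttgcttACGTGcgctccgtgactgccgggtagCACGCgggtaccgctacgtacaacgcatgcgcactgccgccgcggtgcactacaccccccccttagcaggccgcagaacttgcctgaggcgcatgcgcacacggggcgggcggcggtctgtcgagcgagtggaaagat

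In DXp all 10 enzymes fell against WT_EV in the edgeR test at an adjusted p under 0.05, and none rose. Over all 15331 genes tested 40.1% (6149 genes) were lower and 32.2% (4930 genes) higher. With library sizes from genes in the GC range of the enzymes alone, 3169 of all genes were lower and 8354 higher, and 8 enzymes were lower and 1, Pgk1, was higher. Among the 5476 genes within the GC range of the enzymes 65.6% were lower, so most genes of their composition fell too. The median log2 change was -4.17 over the 10 enzymes, -2.08 over the genes in their GC range and -0.35 over all genes. With offsets 9 of the 10 fell, the exception being Pgk1, and none rose, against 25.0% of all genes lower and 25.3% higher. The median was then -1.62 for the enzymes, -0.22 for the genes in their GC range and -0.027 for all genes. In CPM, 10 of 10 enzymes had each DXp library below each WT_EV library, as had 45.2% of all genes. In bulk RNA, fewer cells with a transcript and less transcript per cell cannot be told apart.

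In DXp_DXm 9 of the 10 enzymes fell against WT_EV, with Pgk1 the exception, and none rose, where 36.0% of all genes were lower and 30.9% higher and 59.1% of the genes in the GC range were lower. The median log2 change was -3.48 over the enzymes, -1.58 over the genes in the GC range and -0.15 over all genes. With offsets Gpi1, Pfkl, Aldoa, Tpi1, Gapdh and Pkm fell, 6 of 10, against 20.7% of all genes lower and 22.2% higher, and none rose. The median over the enzymes was -1.48 with offsets, against 0.047 over all genes. With library sizes from genes in the GC range of the enzymes, 3004 of all genes were lower and 8188 higher, and 6 enzymes were lower and 1, Pgk1, was higher. Both DXp_DXm libraries lay below each WT_EV library for 9 of 10 enzymes and for 41.8% of all genes. The comparisons of the deletion groups with WT_EV share the WT_EV libraries.

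**Figure D1:**
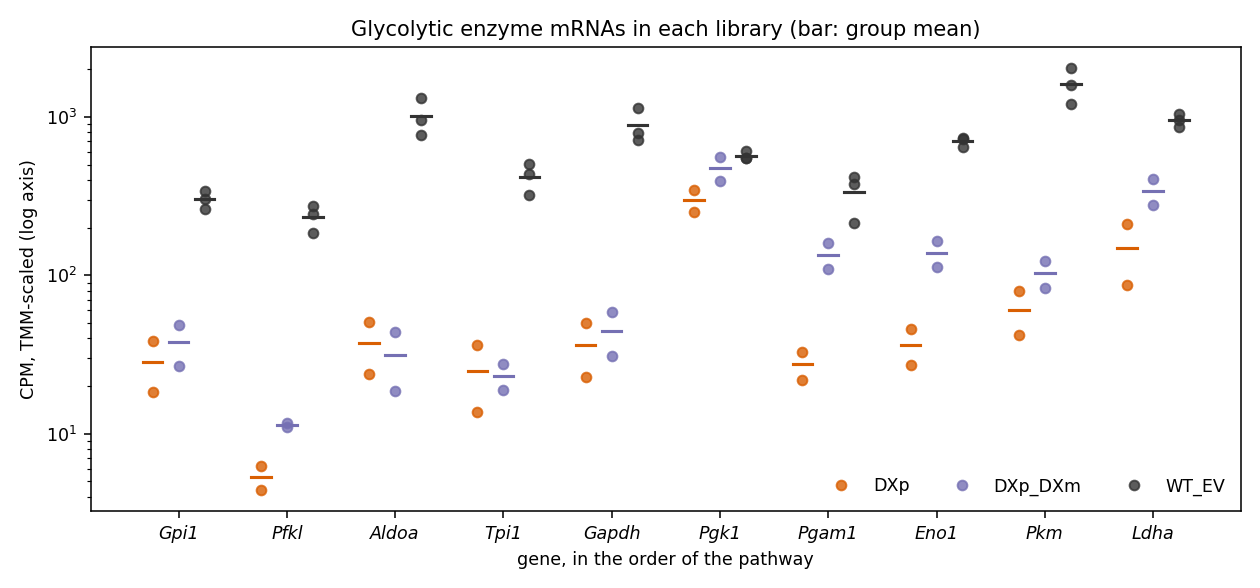
TMM-scaled CPM (log axis) of the 10 enzymes in every library, in the order of the pathway, with DXp, DXp_DXm and WT_EV side by side, 1 point per library and a bar at the group mean. Every enzyme but Pgk1 has its WT_EV points above all points of both deletion groups, and Pgk1 has 1 DXp_DXm library at 562 CPM within the WT_EV range of 552 to 606 CPM.

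Glucose-6-phosphate isomerase (Gpi1, ENSMUSG00000036427, chr7:34201330-34230336, minus strand) converts glucose 6-phosphate to fructose 6-phosphate. It had 38.6 and 18.3 CPM in DXp, 26.7 and 48.9 CPM in DXp_DXm, and 342, 305 and 261 CPM in WT_EV. Both deletion groups lay below WT_EV and overlapped each other. The log2 change was -3.41 in DXp (SE 0.41, 95% interval -4.33 to -2.50, adjusted p 4.56e-05), a 10.6-fold lower level, and -3.0 in DXp_DXm (SE 0.40, adjusted p 1.24e-04), and with offsets -2.36 (adjusted p 0.00242) and -2.26 (adjusted p 0.00382) in the same order.

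Pfkl (ENSMUSG00000020277, chr10:77986947-78010083, minus strand) encodes the liver-type subunit of phosphofructokinase, which commits the sugar to glycolysis. Its level was 6.24 and 4.4 CPM in DXp, 10.99 and 11.8 CPM in DXp_DXm, and 244, 274 and 184 CPM in WT_EV. Both deletion groups lay below WT_EV and did not overlap each other, and the DXp values rest on 122 and 114 counts. It fell 44.1-fold in DXp (log2 -5.46, SE 0.34, 95% interval -6.21 to -4.71, adjusted p 4.46e-06), and 20.6-fold in DXp_DXm (log2 -4.36, SE 0.32, adjusted p 7.61e-06). With offsets the changes were -2.79 in DXp (adjusted p 1.25e-04) and -1.84 in DXp_DXm (adjusted p 9.40e-04).

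Aldolase A (Aldoa, ENSMUSG00000030695, chr7:126795234-126800751, minus strand) cleaves fructose 1,6-bisphosphate into the triose phosphates, and triose phosphate isomerase (Tpi1, ENSMUSG00000023456, chr6:124810586-124814296, minus strand) interconverts these. Aldoa had 50.9 and 23.8 CPM in DXp, 18.7 and 44.1 CPM in DXp_DXm, and 1319, 953 and 764 CPM in WT_EV. Tpi1 had 36.4 and 13.7 CPM in DXp, 18.8 and 27.7 CPM in DXp_DXm, and 501, 434 and 322 CPM in WT_EV. For both genes the deletion groups overlapped and lay far below WT_EV. Aldoa fell, with log2 changes of -4.76 in DXp (SE 0.53, adjusted p 3.55e-05) and -5.01 in DXp_DXm (SE 0.54, adjusted p 4.30e-05), where it was the largest change among the 10 enzymes. Tpi1 fell, with log2 changes of -4.07 in DXp (SE 0.47, adjusted p 3.70e-05) and -4.17 in DXp_DXm (SE 0.47, adjusted p 4.89e-05). With offsets both still fell, Aldoa with changes of -1.45 in DXp (adjusted p 0.0282) and -2.02 in DXp_DXm (adjusted p 0.00907), and Tpi1 with changes of -1.84 in DXp (adjusted p 0.00906) and -2.41 in DXp_DXm (adjusted p 0.00378).

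Glyceraldehyde-3-phosphate dehydrogenase (Gapdh, ENSMUSG00000057666, chr6:125161715-125166467, minus strand) opens the second phase and makes NADH, and its mRNA is widely used as a reference for constant expression. It had 50.1 and 22.8 CPM in DXp, 31.1 and 58.5 CPM in DXp_DXm, and 1144, 797 and 713 CPM in WT_EV. The deletion groups overlapped and both lay below WT_EV, so Gapdh was not a constant reference across these libraries. The log2 change was -4.60 in DXp (SE 0.48, 95% interval -5.67 to -3.53, adjusted p 2.09e-05) and -4.30 in DXp_DXm (SE 0.47, adjusted p 4.21e-05). With offsets it was the largest change of the 10 in both comparisons, at -3.04 in DXp (adjusted p 0.00118) and -3.13 in DXp_DXm (adjusted p 0.00149). Gapdh has 196 annotated pseudogene copies by sequence, and no source used here says how multi-mapping reads were counted. The copies held 25.0% and 22.3% as many counts as Gapdh itself in DXp, 16.2% and 22.5% in DXp_DXm, and 23.0% to 29.5% in WT_EV, so its level is less certain than its direction.

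Phosphoglycerate kinase 1 (Pgk1, ENSMUSG00000062070, chrX:106187100-106203699, plus strand) makes the first ATP of the pathway and is the only X-linked gene of the set. It had 347 and 253 CPM in DXp, 392.2 and 562 CPM in DXp_DXm, and 554, 606 and 552 CPM in WT_EV. DXp lay below WT_EV without overlap, while DXp_DXm overlapped WT_EV. Pgk1 fell 1.90-fold in DXp (log2 -0.93, SE 0.25, 95% interval -1.49 to -0.36, adjusted p 0.0076). In DXp_DXm the change of -0.26 did not pass (SE 0.25, 95% interval -0.81 to 0.29, adjusted p 0.376). With offsets neither passed, at -0.095 in DXp (95% interval -0.71 to 0.52, adjusted p 0.792) and 0.17 in DXp_DXm (95% interval -0.44 to 0.78, adjusted p 0.641). The call in DXp also did not pass without DXp replicate 2, where the log2 change was -0.70 (adjusted p 0.0718). With library sizes taken only from genes in the GC range of the enzymes the sign turned, and Pgk1 stood higher by 0.93 in DXp (adjusted p 0.0172) and by 1.26 in DXp_DXm (adjusted p 0.0036).

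Pgk1 could be set against the WT_clone libraries as well, in a fit of 9 libraries over 3302 shared genes. In CPM over the shared genes it had 1519 and 1117 in DXp, 1651 and 2477 in DXp_DXm, 2719 and 3142 in WT_clone, and 3173, 3450 and 3176 in WT_EV. In this scaling the wild-type groups stood next to each other and above both deletion groups. Over all genes of the 7 libraries, however, DXp_DXm overlapped WT_EV, so the gap between these groups depends on the genes used for scaling. With offsets the sign of WT_clone against WT_EV turned. WT_clone against WT_EV gave a log2 change of -0.16 (95% interval -0.74 to 0.43, adjusted p 0.684), where 30.6% of the shared genes were called in either direction. DXp against WT_clone gave -1.15 (SE 0.29, adjusted p 0.0101), where 40.2% were called, and DXp_DXm against WT_clone gave -0.51 (SE 0.29, adjusted p 0.228), where 25.0% were called. With offsets the change of DXp against WT_clone was -0.53 and did not pass (adjusted p 0.269), and without DXp replicate 2 its adjusted p was 0.0671.

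Phosphoglycerate mutase 1 (Pgam1, ENSMUSG00000011752, chr19:41911923-41918660, plus strand) and enolase 1 (Eno1, ENSMUSG00000063524, chr4:150236721-150248879, plus strand) carry out successive steps from 3-phosphoglycerate to phosphoenolpyruvate. Pgam1 had 32.9 and 21.8 CPM in DXp, 160 and 109 CPM in DXp_DXm, and 379, 418 and 214 CPM in WT_EV. Eno1 had 46.1 and 27.0 CPM in DXp, 112 and 166 CPM in DXp_DXm, and 737, 647 and 722 CPM in WT_EV. In both genes the groups fell into the same order with no overlap, lowest in DXp, then DXp_DXm, then WT_EV. Pgam1 fell, with log2 changes of -3.62 in DXp (SE 0.39, adjusted p 2.33e-05) and -1.32 in DXp_DXm (SE 0.35, adjusted p 0.00673), and Eno1 fell, with changes of -4.26 in DXp (SE 0.34, adjusted p 5.47e-06) and -2.33 in DXp_DXm (SE 0.31, adjusted p 1.12e-04). With offsets both still fell in DXp, Pgam1 by 1.54 (adjusted p 0.00487) and Eno1 by 1.39 (adjusted p 0.00852). In DXp_DXm the offsets turned the sign of both, to 0.26 for Pgam1 (adjusted p 0.539) and 0.35 for Eno1 (adjusted p 0.411). Without DXp_DXm replicate 2, Pgam1 did not pass in DXp_DXm (adjusted p 0.0682). With library sizes from genes in the GC range Pgam1 was at 0.20 there (adjusted p 0.621). Annotated copies of Eno1 held 4.77% and 1.43% as many counts as Eno1 in DXp, 0.847% and 1.09% in DXp_DXm, and 9.91% to 11.3% in WT_EV.

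Pyruvate kinase (Pkm, ENSMUSG00000032294, chr9:59656368-59679375, plus strand) makes pyruvate and the last ATP. It had 79.3 and 41.9 CPM in DXp, 83.2 and 123 CPM in DXp_DXm, and 2023, 1597 and 1201 CPM in WT_EV. The deletion groups did not overlap each other, yet both stood far below WT_EV. Pkm fell 26.5-fold in DXp (log2 -4.73, SE 0.42, adjusted p 8.21e-06), and 15.6-fold in DXp_DXm (log2 -3.96, SE 0.40, adjusted p 2.56e-05). With offsets it fell, with log2 changes of -1.70 in DXp (adjusted p 0.00388) and -1.13 in DXp_DXm (adjusted p 0.0271). The counts sum all transcripts of the gene, so its splice forms were not told apart.

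Lactate dehydrogenase A (Ldha, ENSMUSG00000063229, chr7:46841475-46855627, plus strand) had 212 and 87.2 CPM in DXp, 278 and 404 CPM in DXp_DXm, and 1042, 956 and 868 CPM in WT_EV. DXp lay below DXp_DXm and DXp_DXm below WT_EV, with no overlap. Ldha fell 6.39-fold in DXp (log2 -2.68, SE 0.39, adjusted p 1.56e-04), and 2.80-fold in DXp_DXm (log2 -1.49, SE 0.37, adjusted p 0.00494). With offsets it fell by 1.37 in DXp (adjusted p 0.0235), and in DXp_DXm the change of -0.63 did not pass (95% interval -1.55 to 0.30, adjusted p 0.242). The call in DXp_DXm also did not pass without DXp_DXm replicate 1 (adjusted p 0.0629). With library sizes from genes in the GC range of the enzymes the value in DXp_DXm was 0.040 (adjusted p 0.933).

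**Figure D2:**
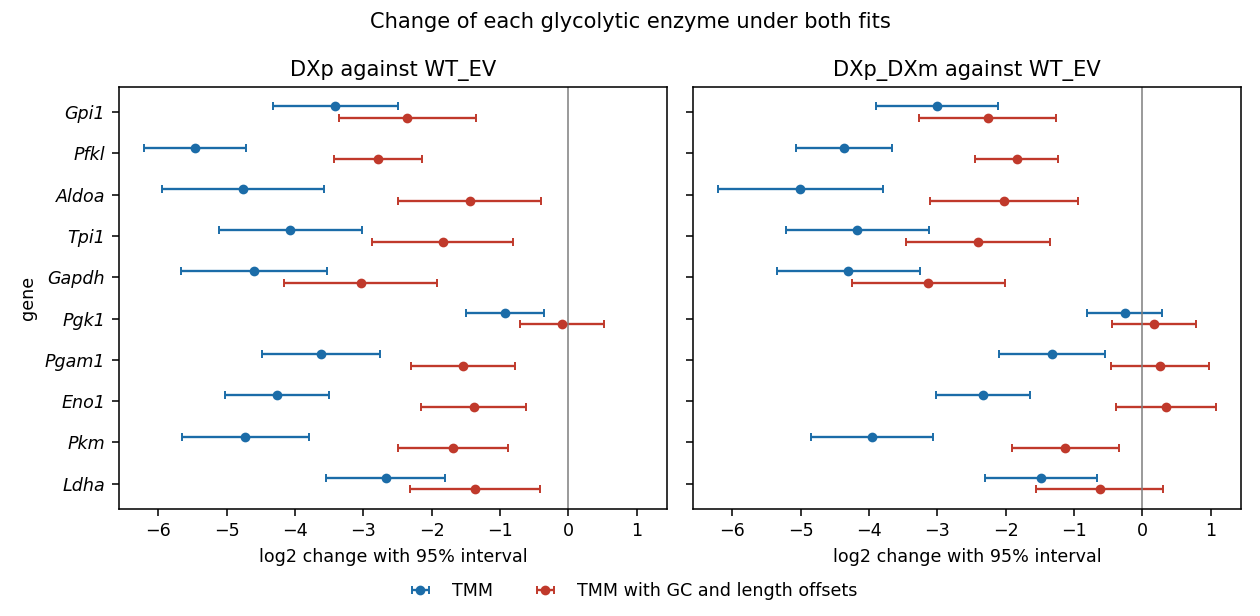
Log2 change of each enzyme against WT_EV with its 95% interval, in DXp (left) and DXp_DXm (right), from the fit with TMM scaling (blue) and from the same fit with offsets for GC content and length (red). Offsets bring every value nearer to 0 in DXp, with a median of -1.62, and in DXp_DXm they take Pgk1, Pgam1 and Eno1 above 0, where none of the 3 passes.

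**Figure D3:**
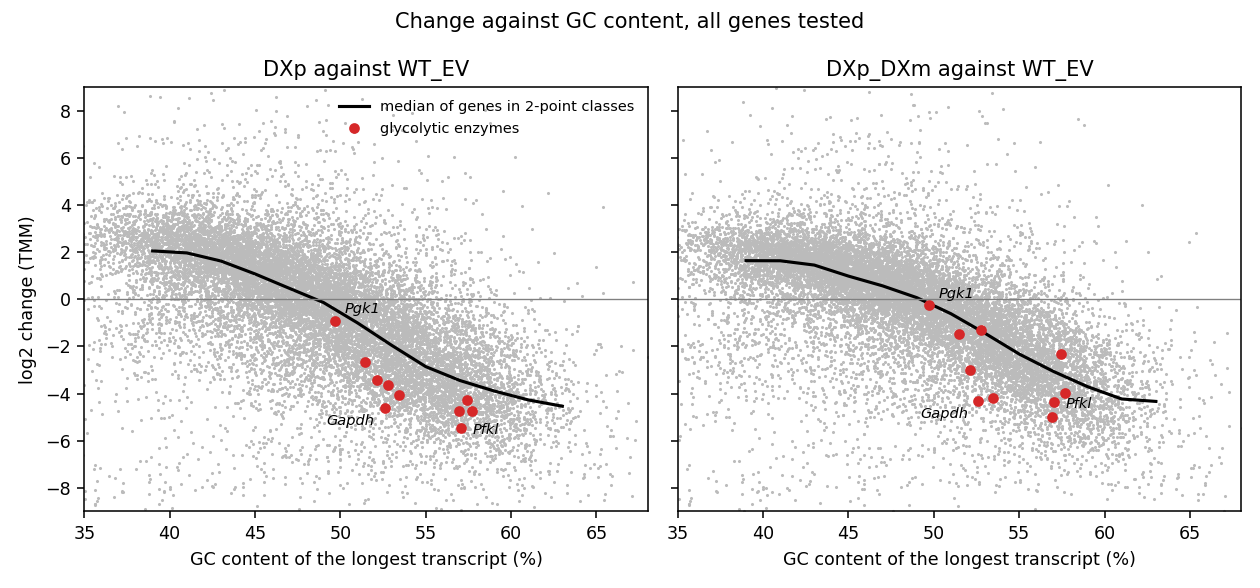
Log2 change against the GC content of the longest transcript for all genes tested (grey, a few of them beyond the axis limits), with the median of genes in classes of GC content as a black line and the 10 enzymes in red, for DXp (left) and DXp_DXm (right). The axes run from 35% to 68% GC and to 9 log2 units either way, and in DXp 10 of 10 enzymes lie below 0, with Pgk1, at 49.7% GC, nearest to it.

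Per kilobase of the exon length given with the counts, the order of the enzymes differed between groups. That length is 4133 bases for Gapdh, 5379 for Eno1 and 2244 for Pgk1, and need not be that of the transcript expressed. The order of genes within a group, their ranks and the isozyme shares below depend on it. In DXp Pgk1 came first at 134 ± 29.8 CPM per kb (SD, n = 2), then Ldha at 45.2 ± 26.6, and the 7 genes from Pgam1 at 13.8 ± 3.97 down to Gpi1 at 4.41 ± 2.22 CPM per kb overlapped from neighbour to neighbour. Pfkl was last at 0.797 ± 0.194 CPM per kb. In DXp_DXm the order began with Pgk1 at 213 ± 53.5, Ldha at 103 ± 26.9 and Pgam1 at 67.9 ± 18.3 CPM per kb (n = 2), each apart from the next, and again ended with Pfkl at 1.70 ± 0.0802. In WT_EV Aldoa led at 348 ± 97.0 CPM per kb (n = 3), followed by Pkm at 321 ± 82.1, Ldha at 289 ± 26.3 and Pgk1 at 254 ± 13.5, and all neighbours from Aldoa to Eno1 overlapped. Gpi1, at 46.9 ± 6.35, and Pfkl, at 35.1 ± 6.88 CPM per kb, closed that order and overlapped each other. Among the 15331 genes ranked by CPM per kb, Aldoa ranked 2742 and 4365 in DXp, 4978 and 2932 in DXp_DXm, and 84 to 139 in WT_EV. Pgk1 ranked 257 and 341 in DXp, 178 and 104 in DXp_DXm, and 120 to 172 in WT_EV, which overlapped only between DXp_DXm and WT_EV.

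The make-up of the set's counts followed from this. Pgk1 supplied 43.9 ± 7.49% of the counts of the 10 genes in DXp (SD, n = 2), 35.4 ± 1.07% in DXp_DXm (n = 2) and 8.29 ± 1.45% in WT_EV (n = 3). Aldoa supplied 5.15 ± 0.719% in DXp, 2.25 ± 0.837% in DXp_DXm and 14.3 ± 1.47% in WT_EV. Pkm supplied 8.48 ± 0.471% in DXp, 7.62 ± 0.390% in DXp_DXm and 22.7 ± 1.86% in WT_EV. These shares were not tested.

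Between the deletion groups, DXp_DXm against DXp, 2 of the 10 enzymes rose and none fell, where 0.280% of all genes were higher and 0.163% lower. Pgam1 rose 4.92-fold, or 2.30 log2 units (SE 0.38, 95% interval 1.45 to 3.15, adjusted p 0.0424). Eno1 rose 3.81-fold, or 1.93 log2 units (SE 0.32, 95% interval 1.22 to 2.64, adjusted p 0.0423). With offsets neither passed, Pgam1 at 1.80 (95% interval 0.98 to 2.63, adjusted p 0.0651) and Eno1 at 1.74 (95% interval 0.91 to 2.57, adjusted p 0.0694), where 0.111% of all genes were higher and 0.0848% lower. Neither passed when DXp replicate 1, DXp replicate 2, DXp_DXm replicate 1, WT_EV replicate 1 or WT_EV replicate 2 was left out, and Eno1 did not pass without DXp_DXm replicate 2 either. Both passed without WT_EV replicate 3, and over the 7 settings that each leave out 1 library the adjusted p was 0.0214 to 0.232 for Pgam1 and 0.0331 to 0.114 for Eno1. The log2 changes themselves stayed between 1.99 and 2.58 for Pgam1 and between 1.59 and 2.34 for Eno1. For the other 8 enzymes values ran from -0.25 for Aldoa (95% interval -1.30 to 0.80) to 1.19 for Ldha (95% interval 0.33 to 2.05, adjusted p 0.131). DXp_DXm lay above DXp without overlap for Pfkl, Pgk1, Pgam1, Eno1, Pkm and Ldha. The share of all genes separated in this way was not counted, so no result about the set is drawn from it. The median log2 change was 0.72 over the 10 enzymes, 0.34 over the genes in their GC range and 0.024 over all genes.

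The libraries within each deletion group were ordered alike for most enzymes. DXp replicate 1 was above DXp replicate 2 for 10 of 10 enzymes, with a median log2 difference of 0.98, where 45.9% of all genes and 32.7% of those in the GC range were higher in replicate 1. DXp_DXm replicate 2 was above DXp_DXm replicate 1 for 9 of 10, Pgam1 being the exception, where 48.2% of all genes and 43.3% of those in the GC range were higher in replicate 2. Both orders held for 9 of 10 enzymes, 14 of 17 tested hypoxia targets outside glycolysis and 7 of 9 tested transporters, against 27.6% of all genes and 18.6% of those in the GC range. In the other lists they held less often, for 5 of 16 isozymes and other steps, 10 of 24 genes of flux control and 4 of 8 of pyruvate entry. They held for 1 of 3 gluconeogenesis genes, 3 of 10 of the pentose phosphate branch and 3 of 10 of the NADH shuttles. DXp replicate 1 has number 2 in its clone name, so by clone name these orders put number 2 on top in both groups. This pattern was looked for after the values had been seen, and it was not tested. Over the 7 libraries, Pearson's r between an enzyme's log2 CPM and the mean of the set was 0.998 for Pkm at the highest, 0.887 for Pgam1 and 0.843 for Pgk1 at the lowest. Outside all lists the genes most like the mean of the set, of 9887 compared over the same 7 libraries, were Agpat3 (r 0.998), Lamtor4 (r 0.997), Morn4 (r 0.997), St14 (r 0.997) and Coq8b (r 0.996). The 7 points fall into the 3 groups and share the GC and depth differences between them, so these values describe the groups as much as the genes.

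Other isozymes are known for most of these steps. Of 25 listed isozymes and genes of other glycolytic steps 16 were tested, and 3 rose and 7 fell in DXp, 3 rose and 5 fell in DXp_DXm, with medians of -0.80 and -0.25 in that order. Over all genes tested 32.2% rose and 40.1% fell in DXp and 30.9% rose and 36.0% fell in DXp_DXm, with medians of -0.35 and -0.15. With offsets 5 of the isozyme list rose and 1 fell in DXp, and 4 rose and 1 fell in DXp_DXm, against 25.3% of all genes that rose and 25.0% that fell in DXp and 22.2% and 20.7% in DXp_DXm. The lists below are read beside these shares, and no list was tested against other genes. Enolase 2 (Eno2), known as the neuronal enolase, rose in both groups. It had 39.5 and 24.3 CPM in DXp, 14.5 and 43.0 CPM in DXp_DXm, and 3.10, 7.003 and 5.82 CPM in WT_EV. Both deletion groups lay above WT_EV. Its log2 change was 2.58 in DXp (SE 0.49, adjusted p 0.00101) and 2.43 in DXp_DXm (SE 0.49, adjusted p 0.00167), and with offsets 4.81 in DXp (adjusted p 3.06e-04) and 4.37 in DXp_DXm (adjusted p 6.74e-04). Eno3, the muscle enolase, fell, with log2 changes of -3.24 in DXp (adjusted p 6.69e-04) and -2.24 in DXp_DXm (adjusted p 0.00475), and with offsets passed in neither, at -0.56 in DXp (adjusted p 0.36) and 0.050 in DXp_DXm (adjusted p 0.942).

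Taken per length, Eno2 was 48.6% and 47.5% of the summed enolase CPM per kb of Eno1, Eno2 and Eno3 in DXp, 12.2% and 22.5% in DXp_DXm, and 0.461%, 1.17% and 0.888% in WT_EV. Eno1 was 49.7% and 46.2% in DXp, 82.4% and 76.0% in DXp_DXm, and 95.9%, 94.8% and 96.3% in WT_EV. The libraries of the 3 groups did not overlap in either share. With the offsets taken out of the levels the Eno2 share averaged 43.8 ± 1.09% in DXp (SD, n = 2), 14.2 ± 6.62% in DXp_DXm (n = 2) and 1.11 ± 0.478% in WT_EV (n = 3). The difference in share was not tested.

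Phosphofructokinase showed a like pattern. Pfkm, the muscle-type subunit gene, had 12.5 and 9.19 CPM in DXp, 7.38 and 13.1 CPM in DXp_DXm, and 11.3, 25.1 and 8.82 CPM in WT_EV. The 3 groups overlapped, and no change passed in the main fit, at -0.48 in DXp (adjusted p 0.383) and -0.56 in DXp_DXm (adjusted p 0.32). With offsets Pfkm rose by 2.03 in DXp (adjusted p 0.00565) and by 1.59 in DXp_DXm (adjusted p 0.0207). Pfkp, the platelet-type gene, rose by 3.02 in DXp (SE 0.82, adjusted p 0.00741), and its value of 0.34 in DXp_DXm did not pass (adjusted p 0.738). With offsets Pfkp rose by 2.28 in DXp (adjusted p 0.0382), and its value of -0.36 in DXp_DXm did not pass (adjusted p 0.756). Per length, Pfkl was 18.2% and 15.2% of the summed CPM per kb of the 3 subunit genes in DXp, 42.2% and 30.1% in DXp_DXm, and 91.4%, 84.5% and 90.7% in WT_EV. Pfkm was 73.1% and 63.6% in DXp, 56.7% and 67.1% in DXp_DXm, and 8.47%, 15.5% and 8.69% in WT_EV. With offsets the Pfkl share averaged 18.6 ± 1.34% in DXp, 40.3 ± 10.2% in DXp_DXm and 87.2 ± 4.27% in WT_EV. Other families moved less. Ldha was 95.85% and 94.4% of Ldha and Ldhb in DXp, 96.4% and 97.4% in DXp_DXm, and 96.65% to 97.1% in WT_EV. Aldoa was 95.9% and 98.3% of the tested aldolase genes in DXp, 91.8% and 94.8% in DXp_DXm, and 99.6% to 99.8% in WT_EV.

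**Figure D4:**
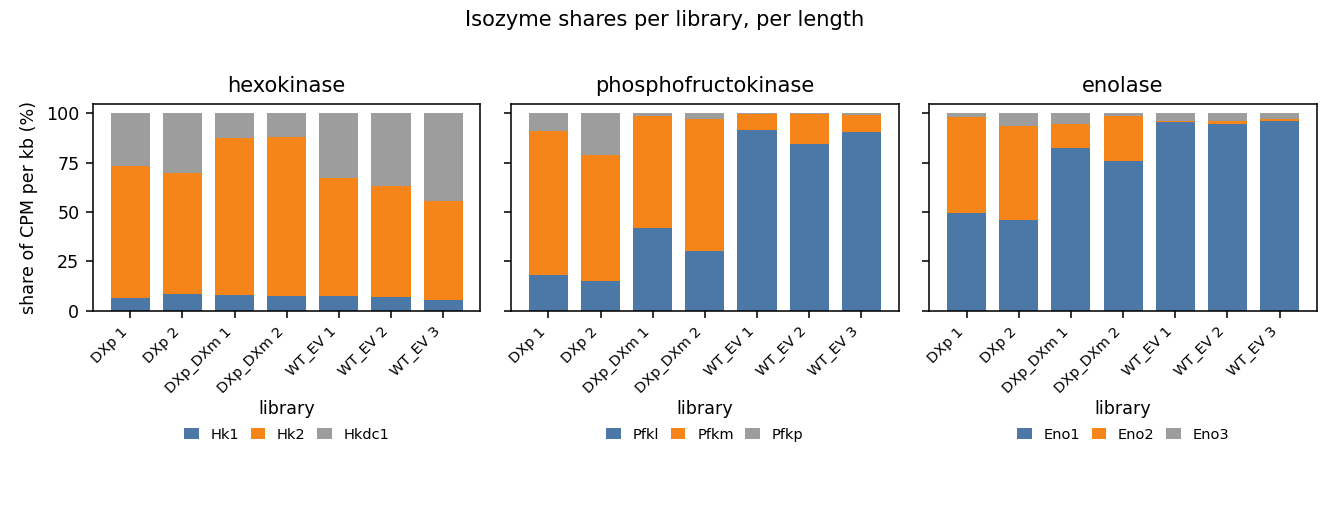
Share of each isozyme in the summed CPM per kb of its family, per library, for hexokinase, phosphofructokinase and enolase, with 1 stacked bar per library from DXp at the left to WT_EV at the right. Pfkl takes 15.2% to 42.2% of its family in the deletion libraries and 84.5% to 91.4% in WT_EV, and Eno2 takes 12.2% to 48.6% of its family in the deletion libraries and at most 1.17% in WT_EV, while Hk2 has the largest share of the hexokinases in every library.

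Hexokinase, which traps glucose in the cell, lies outside the set. Its main isozyme gene here, Hk2, had 74.5 and 89.2 CPM in DXp, 96.2 and 138 CPM in DXp_DXm, and 234, 251 and 249 CPM in WT_EV. It fell, with log2 changes of -1.58 in DXp (SE 0.25, adjusted p 2.66e-04) and -1.06 in DXp_DXm (SE 0.24, adjusted p 0.00323). With offsets Hk2 fell by 0.66 in DXp (adjusted p 0.0427) and its value of -0.41 in DXp_DXm did not pass (adjusted p 0.185). Hk1 fell, with log2 changes of -1.61 in DXp (adjusted p 0.00107) and -1.43 in DXp_DXm (adjusted p 0.00244), and offsets turned its sign, to 0.70 in DXp (adjusted p 0.0436) and 0.80 in DXp_DXm (adjusted p 0.0299). Hkdc1 fell, with log2 changes of -2.22 in DXp (adjusted p 1.83e-04) and -3.26 in DXp_DXm (adjusted p 3.47e-05), and with offsets in DXp_DXm only, at -1.23 (adjusted p 0.0196), against 0.021 in DXp (adjusted p 0.965). Adpgk, the ADP-dependent glucokinase gene, rose by 0.85 in DXp (adjusted p 0.00864) and by 0.70 in DXp_DXm (adjusted p 0.0245) and with offsets passed in neither, at 0.43 in DXp (adjusted p 0.129) and 0.19 in DXp_DXm (adjusted p 0.51). Minpp1, a phosphatase gene that can act on bisphosphoglycerate, had a value of 0.63 in DXp (adjusted p 0.0913) and rose by 0.97 in DXp_DXm (adjusted p 0.0181), and with offsets rose in both, by 2.68 and 2.59. Ldhb, the other lactate dehydrogenase, fell, with log2 changes of -2.13 in DXp (adjusted p 6.51e-04) and -1.57 in DXp_DXm (adjusted p 0.0039), with 0.11 and 0.17 under offsets, where neither passed.

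Of 17 listed genes of sugar and lactate transport 9 were tested, of which 2 rose and 4 fell in DXp and 3 rose and 5 fell in DXp_DXm, with medians of -1.35 and -1.02. All genes had 32.2% higher and 40.1% lower in DXp and 30.9% higher and 36.0% lower in DXp_DXm. With offsets 2 of the 9 rose and 2 fell in DXp, and 2 rose and 1 fell in DXp_DXm, with medians of -0.21 and -0.068, where 25.3% and 22.2% of all genes rose and 25.0% and 20.7% fell. Slc16a3, the lactate exporter MCT4, had 3.68 and 2.43 CPM in DXp, 3.44 and 4.12 CPM in DXp_DXm, and 54.6, 65.4 and 55.2 CPM in WT_EV. It fell, with log2 changes of -4.26 in DXp (SE 0.34, adjusted p 5.44e-06) and -3.95 in DXp_DXm (SE 0.33, adjusted p 1.14e-05), and with offsets of -1.58 in DXp (adjusted p 0.00345) and -1.48 in DXp_DXm (adjusted p 0.00575). The genes of the chaperones of these exporters went opposite ways in the main fit. Bsg fell, with log2 changes of -2.60 in DXp (adjusted p 6.08e-05) and -1.02 in DXp_DXm (adjusted p 0.0126), and Emb rose by 2.07 in DXp (adjusted p 2.59e-04) and by 1.53 in DXp_DXm (adjusted p 0.002). Offsets turned Bsg to 1.04 in DXp (adjusted p 0.0096) and 2.29 in DXp_DXm (adjusted p 3.51e-04), and left Emb at 0.70 and 0.32, where neither passed. The glucose transporter gene Slc2a1, named here after its values were seen, fell, with log2 changes of -2.48 in DXp (adjusted p 0.00346) and -1.73 in DXp_DXm (adjusted p 0.019), and with offsets gave -0.21 (adjusted p 0.779) and 0.14 (adjusted p 0.855). Slc2a3, named likewise, averaged 1980 CPM in WT_EV and passed in neither, at -0.14 (adjusted p 0.694) and -0.15 (adjusted p 0.684), nor with offsets, at -0.85 and -0.90. Slc16a1 averaged 1030 CPM in WT_EV. It did not pass in DXp, at 0.435 (adjusted p 0.112), and rose by 0.98 in DXp_DXm (adjusted p 0.00372). With offsets it fell by 1.05 in DXp (adjusted p 0.00405), and its -0.26 in DXp_DXm did not pass.

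Of 27 genes listed under control of flux 24 were tested, and 12 rose in each comparison while 6 fell in DXp and 5 in DXp_DXm, with medians of 1.24 and 0.91. The shares over all genes were 32.2% and 30.9% that rose and 40.1% and 36.0% that fell. With offsets 8 of the 24 rose in each, and 5 fell in DXp and 1 in DXp_DXm, with medians of 0.35 and 0.43, where 25.3% and 22.2% of all genes rose and 25.0% and 20.7% fell. Of the genes for pyruvate dehydrogenase kinases, which hold pyruvate back from the mitochondria, Pdk1 and Pdk3 rose with and without offsets and Pdk2 did not. Pdk1 had 48.9 and 25.6 CPM in DXp, 45.1 and 82.0 CPM in DXp_DXm, and 7.88, 8.86 and 6.48 CPM in WT_EV. It rose by 2.26 in DXp (adjusted p 2.90e-04) and by 3.04 in DXp_DXm (adjusted p 6.75e-05), and with offsets by 1.24 (adjusted p 0.0212) and 2.05 (adjusted p 0.00266). The X-linked Pdk3 rose by 1.67 in DXp (adjusted p 2.17e-04) and by 2.44 in DXp_DXm (adjusted p 3.23e-05), and with offsets by 1.78 and 2.30. Pdk2, named here after its values were seen, fell, with log2 changes of -3.25 in DXp (adjusted p 0.00141) and -2.52 in DXp_DXm (adjusted p 0.00528), and passed in neither with offsets, at -0.067 and 0.41. Pdp1, whose phosphatase undoes what the kinases do, rose by 3.56 in DXp (adjusted p 1.73e-05) and by 2.55 in DXp_DXm (adjusted p 1.66e-04), and with offsets by 1.67 (adjusted p 0.00381) and 1.14 (adjusted p 0.0273). Egln1, the main prolyl hydroxylase that marks HIF for decay, rose by 1.64 in DXp (adjusted p 3.91e-04) and by 2.17 in DXp_DXm (adjusted p 9.05e-05), and with offsets by 4.48 and 4.72. Its relative Egln2 fell, with log2 changes of -5.47 in DXp (adjusted p 6.60e-06) and -4.36 in DXp_DXm (adjusted p 2.19e-05), and with offsets in DXp only, at -1.37 (adjusted p 0.0128) against -0.28 in DXp_DXm (adjusted p 0.535). Hif1a itself rose by 2.17 in DXp (adjusted p 2.97e-05) and by 1.31 in DXp_DXm (adjusted p 9.05e-04), and with offsets gave 0.28 and -0.21, where neither passed. Myc, named here after its values were seen, fell, with log2 changes of -3.89 in DXp (adjusted p 0.00144) and -2.38 in DXp_DXm (adjusted p 0.0133). With offsets the change of Myc was -1.83 in DXp (adjusted p 0.0345), and it did not pass in DXp_DXm. Its DXp values rest on 36 and 171 counts.

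Targets of HIF outside glycolysis formed another list. Of 18 listed 17 were tested, of which 9 rose and 4 fell in DXp and 9 rose and 1 fell in DXp_DXm, and with offsets 9 rose and 1 fell in DXp and 10 rose and 0 fell in DXp_DXm. The medians were 0.94 in DXp and 1.53 in DXp_DXm, and 1.52 and 1.31 with offsets. Over all genes 32.2% rose and 40.1% fell in DXp and 30.9% rose and 36.0% fell in DXp_DXm, with medians of -0.35 and -0.15, and with offsets 25.3% rose and 25.0% fell in DXp and 22.2% rose and 20.7% fell in DXp_DXm, with medians of -0.027 and 0.047. Bnip3, a mitophagy receptor gene, had 750 and 258 CPM in DXp, 316 and 784 CPM in DXp_DXm, and 30.6, 36.5 and 24.2 CPM in WT_EV. It rose by 4.05 in DXp (SE 0.51, adjusted p 8.98e-05) and by 4.18 in DXp_DXm (SE 0.51, adjusted p 1.07e-04), and with offsets by 2.80 (adjusted p 0.00126) and 3.18 (adjusted p 0.00107). Ero1l, an oxidase of the endoplasmic reticulum, had 4004 and 1627 CPM in DXp, 992 and 2875 CPM in DXp_DXm, and 97.8, 122 and 252 CPM in WT_EV. It rose by 4.16 in DXp (adjusted p 2.68e-04) and by 3.62 in DXp_DXm (adjusted p 6.83e-04), and with offsets by 2.36 and 2.20. Bnip3l and the histone demethylase gene Kdm3a rose by 3.18 and 3.11 in DXp and by 2.56 and 2.93 in DXp_DXm. With offsets Bnip3l rose by 1.65 in DXp (adjusted p 0.00427) and by 1.34 in DXp_DXm (adjusted p 0.0141), and Kdm3a by 1.86 (adjusted p 0.0071) and 1.79 (adjusted p 0.0105). All 4 have GC contents of 41.6% to 45.5%, under the 49.7% to 57.7% of the enzymes. Between the deletion groups the list had 1 call, Fam162a, named here after its values were seen, which rose by 1.63 in DXp_DXm against DXp (adjusted p 0.0424). With offsets 0 of the 17 passed there. Against WT_EV Fam162a fell by 1.12 in DXp (adjusted p 0.00278), and by 0.79 with offsets (adjusted p 0.0236). Its value of 0.51 in DXp_DXm did not pass in the main fit (adjusted p 0.0858).

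The pentose phosphate branch draws on the first hexose phosphate of glycolysis to make NADPH and ribose. Of its 12 listed genes 10 were tested, and 3 rose and 6 fell in both comparisons, with medians of -2.21 in DXp and -1.38 in DXp_DXm. With offsets 3 rose and 6 fell in DXp, and 4 rose and 6 fell in DXp_DXm, with medians of -2.03 and -1.63. Of all genes 40.1% fell in DXp and 36.0% in DXp_DXm, and with offsets 25.0% and 20.7%, with 32.2% and 30.9% that rose, or 25.3% and 22.2% with offsets. Transketolase (Tkt) had 19.3 and 14.3 CPM in DXp, 11.5 and 17.9 CPM in DXp_DXm, and 654, 599 and 442 CPM in WT_EV. It fell, with log2 changes of -5.08 in DXp (SE 0.35, adjusted p 4.46e-06) and -5.27 in DXp_DXm (SE 0.36, adjusted p 7.18e-06), and with offsets of -3.38 (adjusted p 1.03e-04) and -3.82 (adjusted p 1.34e-04). Taldo1, Pgls and the X-linked G6pdx, whose enzyme opens the branch, fell with log2 changes of -4.33, -5.24 and -4.36 in DXp and of -3.65, -5.12 and -2.83 in DXp_DXm, each with an adjusted p at or under 1.28e-04. With offsets the changes were -2.005, -2.06 and -2.61 in DXp and -1.75, -2.18 and -1.51 in DXp_DXm, and each passed. Rpe, an epimerase gene of 39.2% GC, rose by 2.41 in DXp (adjusted p 2.00e-05) and by 1.98 in DXp_DXm (adjusted p 9.05e-05), and by 0.82 and 0.80 with offsets.

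For the last lists the shares over all genes are again 32.2% that rose and 40.1% that fell in DXp and 30.9% and 36.0% in DXp_DXm, and with offsets 25.3% and 25.0% in DXp and 22.2% and 20.7% in DXp_DXm. Downstream of pyruvate, 8 of 8 genes of its entry to mitochondria were tested, of which 5 rose and 1 fell in DXp and 4 rose and 1 fell in DXp_DXm, and with offsets 2 rose and 2 fell in DXp and 3 rose and 0 fell in DXp_DXm. Their median was 0.84 in both, and with offsets 0.063 in DXp and -0.11 in DXp_DXm. Dld, of the pyruvate dehydrogenase complex, rose by 2.69 in DXp (adjusted p 2.01e-05) and by 1.96 in DXp_DXm (adjusted p 1.80e-04), and with offsets by 1.10 and 0.69. The X-linked Pdha1 rose by 1.70 in DXp (adjusted p 7.91e-05) and by 1.38 in DXp_DXm (adjusted p 3.91e-04), and with offsets by 0.94 and 0.61. In CPM over the genes shared with WT_clone, Pdha1 had 1120 and 1956 in WT_clone and 567 to 770 in WT_EV. DXp, at 1628 and 1580, and DXp_DXm, at 1148 and 1369, lay within the WT_clone range. The rise of Pdha1 is thus one against WT_EV only. For G6pdx, Rpe, Pdk1 and Pdk3 the WT_clone libraries lay on the WT_EV side of both deletion groups. The 10 genes of the NADH shuttles, which carry the reducing power of the Gapdh step into mitochondria, were all tested, and 1 rose and 6 fell in DXp and 1 rose and 5 fell in DXp_DXm, with 1 and 0 that rose and 4 and 5 that fell under offsets. The median of the shuttle genes was -1.29 in DXp and -1.19 in DXp_DXm, and with offsets -0.66 and -0.74. Mdh2 fell, with log2 changes of -4.12 in DXp (adjusted p 4.46e-06) and -2.98 in DXp_DXm (adjusted p 1.42e-05), and with offsets of -3.16 and -2.38. Got2 fell, with log2 changes of -3.52 in DXp (adjusted p 5.47e-06) and -3.01 in DXp_DXm (adjusted p 1.52e-05), and with offsets the changes were -1.41 and -1.201. Of 8 gluconeogenesis genes 3 were tested, and 2 fell in DXp and 3 in DXp_DXm, with 0 and 1 that fell under offsets. Among them G6pc3 fell, with log2 changes of -3.96 in DXp (adjusted p 1.10e-04) and -4.36 in DXp_DXm (adjusted p 9.59e-05), and with offsets passed in neither, at -0.32 in DXp (adjusted p 0.603) and -1.03 in DXp_DXm (adjusted p 0.118).

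**Figure D5:**
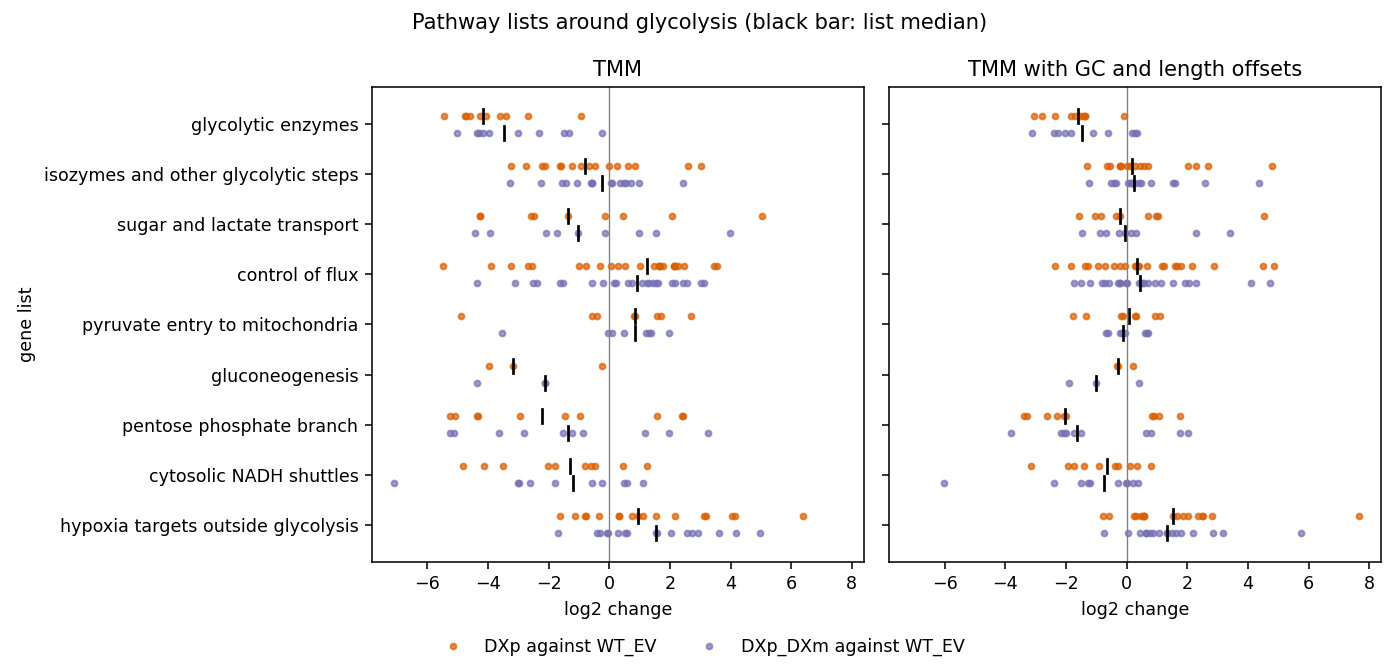
Log2 change of every tested gene of the glycolytic set and of 8 lists of neighbouring functions, in DXp (orange) and DXp_DXm (violet) against WT_EV, from the fit with TMM scaling (left) and with offsets for GC content and length (right), with a black bar at each list's median. In the right panel the glycolytic enzymes (median -1.62 in DXp) and the pentose phosphate branch (median -2.03 in DXp) lie to the left, and the hypoxia targets outside glycolysis (median 1.52 in DXp) to the right.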

How the data were processed

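RNA from 9 XEN cell libraries was sequenced. Per the submitters' processing notes, FastQC, STAR 2.7.9a and featureCounts 2.0.1 were used, with the builds GRCm38 and mm10 named. The authors deposited raw read counts per gene. No source used here gives the strand setting, the annotation release or how multi-mapping reads were treated, and the labels name stranded kits of 2 makes without saying which library had which. Symbols and GC content came from GENCODE M21, transcript length was the exon length given with the deposited counts, and the WT_clone table was held in part.

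For the 7 libraries, low counts were removed by filterByExpr, TMM gave the library sizes, and edgeR 4.0.16 (R 4.3.3) ran its robust quasi-likelihood test, adjusted by Benjamini-Hochberg over all 15331 genes. Changed means an adjusted p under 0.05. Offsets were natural splines with 5 degrees of freedom on GC content and log2 length, per library. Pseudogene copies were found with blastn 2.17.0 (at least 90% identity over 200 bases). DESeq2 1.42.0 served as an alternative. The script was tested on simulated counts with less spread than these libraries and no trend on GC content. That test covers the running of the main fit only and does not bear on the results here. Counting error is small for these genes, and the number of libraries limits the precision.

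The enzymes and lists were chosen with earlier results of these data known. The text names the enzymes, examples from up to 4 genes per list with the lowest p in either comparison with WT_EV, and 10 of the 16 tested isozymes, picked after their values were seen. It also names the 5 genes outside all lists that are most like the enzymes' mean, protein-coding with a mean of at least 2 CPM. The main fit did not pair libraries by number, since the labels do not say that a number marks a shared day or culture. The DXp titles read D1_DeltXp_2 rep1 and D1_DeltXp_1 rep2, and the replicate here is the number after rep.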

Additional observations from a re-analysis of the deposited data

Results flagged for a closer look

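Pgam1 and Eno1 differed between the deletion groups by the edgeR test of that difference, with log2 changes of 2.30 for Pgam1 and 1.93 for Eno1 in DXp_DXm against DXp. Each passed narrowly (adjusted p 0.0424 and 0.0423), and neither passed with GC and length offsets. No group holds enough libraries for a search of single libraries that stand apart.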

How the results depend on the processing

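Both comparisons with WT_EV kept their counts of lower enzymes under RLE size factors, DESeq2, no filter, library sizes from protein-coding genes, only the 2 groups compared and counts summed with pseudogene copies. Leaving out 1 library gave 9 to 10 lower enzymes in DXp and 8 to 9 in DXp_DXm, with medians of -4.70 to -3.72 and -3.87 to -3.08. Between the deletion groups it gave 0 to 2 higher enzymes. The cause was not tested. Over all genes that comparison had 43 higher and 25 lower in the main fit, 547 and 620 with DESeq2 (2 enzymes higher), 852 and 584 without the filter, 884 and 689 with the clone-name number as block, 3 and 7 with only the 2 groups, and 17 and 13 with offsets. RLE moved the median of all genes to -0.20 in DXp, against -0.35 with TMM.

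The number of enzymes higher in DXp_DXm against DXp was 1 with RLE, 4 without the filter, 0 with offsets, 0 with only the 2 groups and 0 with sizes from the GC range. In that comparison Gapdh turned to -0.092 with offsets and -0.059 with sizes from the GC range. Leaving out 1 library gave, there, -0.99 to 0.38 for Aldoa, -0.23 to 0.95 for Gapdh, -0.092 to 1.02 for Gpi1 and -0.64 to 0.74 for Tpi1. It gave -0.53 to 0.061 for Pgk1 and -0.93 to 1.48 for Pfkp in DXp_DXm against WT_EV, and for Pfkm -0.77 to 0.085 in DXp and -1.02 to 0.0050 in DXp_DXm.

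With offsets the median of the enzymes was -1.62 in DXp and -1.48 in DXp_DXm. Among the genes named in the text, signs turned in DXp for Hk1 (0.70), Hkdc1 (0.021), Ldhb (0.11), Bsg (1.04) and Pfkm (2.03), and in DXp_DXm for Pgk1 (0.17), Pgam1 (0.26), Eno1 (0.35), Hk1 (0.80), Pfkp (-0.36), Pfkm (1.59), Eno3 (0.050), Ldhb (0.17), Slc2a1 (0.14), Bsg (2.29), Pdk2 (0.41) and Hif1a (-0.21). Genes of the lists that the text does not name are not covered by these signs, here or below, and neither are Slc2a3, Slc16a1 and Myc. In the 9-library fit Pgk1 turned to 0.40 in WT_clone against WT_EV and weakened to -0.53 in DXp against WT_clone. There, leaving out 1 library gave -0.25 to -0.036 for WT_clone against WT_EV, -1.37 to -0.96 for DXp against WT_clone and -0.76 to -0.25 for DXp_DXm against WT_clone.

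With library sizes from genes in the GC range, chosen after seeing the data, the median change of all genes moved to 1.47 in DXp and 1.35 in DXp_DXm, against -0.35 and -0.15. The enzymes' median became -2.28 and -1.95, and Pgk1 made 1 higher in each. Signs turned in DXp for Pgk1 (0.93), Hk1 (0.20), Hk2 (0.25) and Pfkm (1.39), and in DXp_DXm for Pgk1 (1.26), Pgam1 (0.20), Ldha (0.040), Hk1 (0.088), Hk2 (0.46), Pfkm (0.98) and Bsg (0.51).

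The differences between same-numbered libraries had correlations of -0.20 to 0.082 between groups. By the number in the clone name the correlations were 0.066 to 0.20, all positive. Each rests on a single pair of libraries per group, so whether either number marks a shared culture or day is not settled. A fit with the replicate block kept 10 lower enzymes in DXp and 9 in DXp_DXm, had 1 higher in DXp_DXm against DXp and turned Tpi1 there to 0.0060. With the number in the clone name as block 4 were higher there. The replicate block with offsets gave medians of -1.80 in DXp and -1.50 in DXp_DXm, 5 lower enzymes in DXp_DXm and 0 higher in DXp_DXm against DXp. Its signs turned in DXp for Hk1 (0.77), Hkdc1 (0.41), Ldhb (0.086), Bsg (1.01) and Pfkm (1.98), and in DXp_DXm for Pgk1 (0.15), Pgam1 (0.015), Eno1 (0.55), Hk1 (0.87), Ldhb (0.21), Slc2a1 (0.090), Bsg (2.26), Pdk2 (0.18), Hif1a (-0.26) and Pfkm (1.41). The cause of these moves was not tested beyond the settings named.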
